A study of Mus musculus with 19 samples.

Results

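The miR-146, miR-155 and miR-21 miRNAs are 8 of the 1136 miRNAs on the array. They are all miRNAs whose array name has the stem mmu-miR-146a, mmu-miR-146b, mmu-miR-155, mmu-miR-21 or mmu-miR-21a, and comprise a 5p and a 3p arm of each of mmu-miR-146a, mmu-miR-146b, mmu-miR-155 and mmu-miR-21a. They were measured in male mice of an inherently high-active inbred strain, C57L/J, and an inherently low-active inbred strain, C3H/HeJ, in nucleus accumbens (4 high-active and 3 low-active arrays), soleus (4 and 2) and extensor digitorum longus, EDL (2 and 4). All mice were untreated, 9 weeks old at harvest and had been housed alone with a locked running wheel for 1 week, so neither strain had been running on it. By the mouse numbers in the labels, the 19 arrays come from 8 mice, 4 of each strain, and most mice gave more than 1 tissue. C3H/HeJ mice carry a defective Tlr4, the receptor for bacterial lipopolysaccharide, but the strains differ at many other loci too, and strain and activity cannot be told apart in this design.

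These miRNAs are known for their place in inflammatory signalling. Toll-like receptors and cytokine receptors activate NF-kB, which raises the transcription of miR-146a and miR-155, while STAT3 raises that of miR-21. miR-146a and miR-146b repress the adaptors IRAK1 and TRAF6 and so damp the pathway that induces them, miR-155 represses the brakes SHIP1 and SOCS1 and so sustains it, and miR-21 represses PDCD4 and is abundant in many cell types, fibroblasts among them.

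The mature 5p sequences from RefSeq (GRCm38.p6) are shown because they define which members can act on the same targets. The seed, bases 2 to 8 counted from the 5′ end, is in capitals.
mmu-miR-146a-5p: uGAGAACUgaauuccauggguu
mmu-miR-146b-5p: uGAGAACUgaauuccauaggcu
mmu-miR-155-5p: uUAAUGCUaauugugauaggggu
mmu-miR-21a-5p: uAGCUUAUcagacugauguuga
The 2 miR-146 miRNAs shared their seed and 20 of 22 bases, and differed only at G18A and U21C (the base of mmu-miR-146a-5p first, then the position from the 5′ end, then the base of mmu-miR-146b-5p). They come from different chromosomes, Mir146 on the minus strand of chr11:43374435-43374456 and Mir146b on the plus strand of chr19:46342790-46342811, where a long non-coding RNA gene, Gm36493, overlaps it. Because 20 bases are identical, part of the signal of one miR-146 probe could come from the other miRNA, which was not tested. No other mature mouse miRNA in the RefSeq table had the seed of mmu-miR-155-5p, which lies at chr16:84714143-84714165 within its host transcript Mir155hg. mmu-miR-21a-5p lies at chr11:86584120-86584141 within the span of the protein-coding gene Vmp1, and its seed was shared only by mmu-miR-21c, which is not among the miRNAs of the files used here.

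The 5p arms of miR-146a, miR-146b and miR-21a were well above background on all 19 arrays, whereas the 3p arms of all 4 genes were not well above background on any. A miRNA counted as well above background on an array when over 0.5 of the spots of one of its probes were so marked by the scanner software. The sequences of the 4 undetected arms are given to show which strand of each hairpin had no measurable signal.
mmu-miR-146a-3p: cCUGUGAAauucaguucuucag
mmu-miR-146b-3p: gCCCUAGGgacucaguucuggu
mmu-miR-155-3p: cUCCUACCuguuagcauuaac
mmu-miR-21a-3p: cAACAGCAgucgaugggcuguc
Before scaling, the background-subtracted signals of the probes for these 3p arms lay between -5.71 and 6.29 intensity units on all arrays, and no difference between groups can be given for them. mmu-miR-155-5p was well above background on all 12 muscle arrays and on none of the 7 nucleus accumbens arrays, where its brightest probe read 16.6 to 22.1 units before scaling. No member spot was saturated. Over the spots of one probe on one array, the median coefficient of variation was 9.81% for mmu-miR-146a-5p, 8.20% for mmu-miR-146b-5p, 8.46% for mmu-miR-155-5p and 4.42% for mmu-miR-21a-5p.

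Across all miRNAs, 242 to 392 were well above background per array, and the 75th percentile of signal before scaling ranged from 480 to 1357 units. The low-active EDL array of mouse 195 was the dimmest. In soleus, both low-active arrays were brighter than all 4 high-active arrays, at 588 to 1001 units for high-active and 1206 to 1357 units for low-active mice. The strain differences below are of log2 signals scaled within a tissue, so they are relative to other miRNAs and not to total RNA. Probes differ in their response, so the signals of different miRNAs give no order of abundance. In whole tissue, fewer cells of a type and less of the miRNA per cell cannot be told apart. The tissue labels fitted most markers. The brain miRNAs miR-124-3p, miR-9-3p, miR-137-3p and miR-129-5p were well above background on all nucleus accumbens arrays and on no muscle array. Of the other brain markers, miR-128-3p was so on all 6 soleus and all 6 EDL arrays. The marker miR-138-5p was so on 2 soleus arrays and miR-9-5p on 1. The summed signal of 6 skeletal muscle miRNAs was 422970 to 661429 units in muscle and 516 to 2362 units in nucleus accumbens. There, miR-1a-3p, miR-133a-3p and miR-133b-3p were still well above background on all 7 arrays.

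Of the 4 measured miRNAs, mmu-miR-146b-5p had a lower mean in high-active mice in every tissue, with no overlap between the strains in any of the 3. Of all miRNAs tested, 14.6% in nucleus accumbens, 12.3% in soleus and 10.6% in EDL were lower without overlap. The share that was so in all 3 tissues was not counted. The sign of mmu-miR-146b-5p turned in nucleus accumbens without scaling (0.063) and in soleus with the scanner software's own signal per miRNA (0.17). When the strain difference was averaged over tissues in one model of all 19 arrays, it fell by 0.56 on the log2 scale in high-active mice (SE 0.10, 95% confidence interval -0.78 to -0.34), 1.47-fold lower, and passed the test (limma, Benjamini-Hochberg adjusted p = 0.00176). No member passed the test in a single tissue. The other 3 members had differences of opposite sign in different tissues. For mmu-miR-155-5p this rested on -0.06 in EDL, where the within-slide differences were 0.07 and 0.10. That EDL sign turned under 5 of 24 alternatives.

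In the nucleus accumbens, the log2 signal of mmu-miR-146b-5p was 8.25, 8.12, 8.22 and 8.21 in high-active mice and 8.41, 8.73 and 8.41 in low-active mice. The 4 high-active values lay close together and all below the low-active values, of which mouse 195 was highest. The difference was -0.32 (SE 0.13, 1.25-fold lower), with an unadjusted p of 0.0362 and an adjusted p of 0.205 (limma), and was -0.18 without low-active mouse 195. In soleus, the values were 5.93, 6.34, 5.73 and 5.48 in high-active mice and 6.73 and 6.81 in low-active mice. Every high-active soleus was lower than both low-active ones, with mouse 227 the lowest and mouse 224 the nearest to them. The difference in soleus was -0.90 (SE 0.25, 1.87-fold lower, adjusted p = 0.150, limma). In EDL, the values were 6.57 and 6.22 in high-active mice and 6.61, 6.90, 6.74 and 6.84 in low-active mice. The groups were apart here by a narrow margin, between high-active mouse 225 and low-active mouse 194, and the difference of -0.38 (SE 0.20, 1.30-fold lower) had an adjusted p of 0.704 (limma) and was -0.24 without high-active mouse 227.

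**Figure D1:**
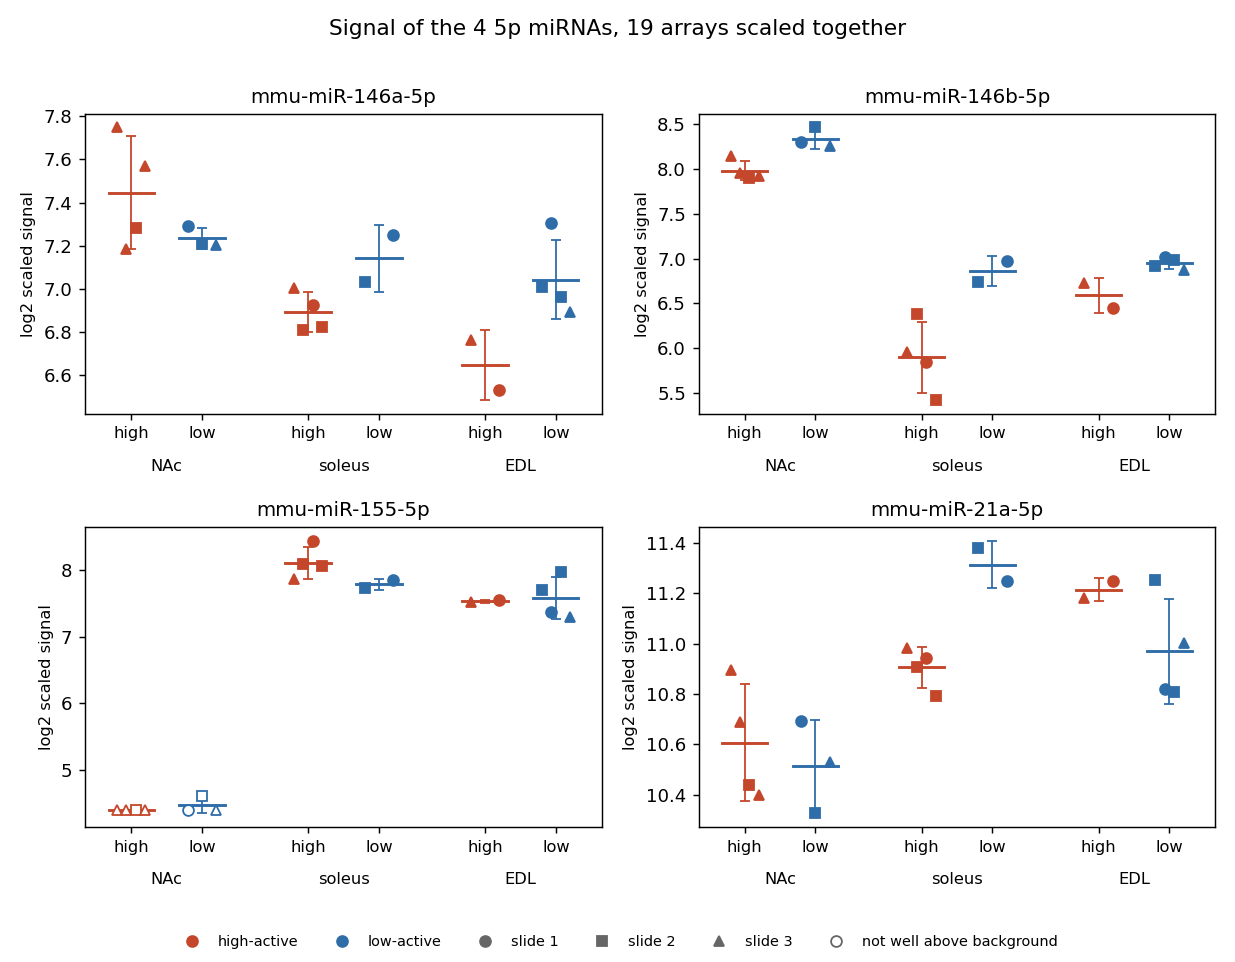
Log2 scaled signal (y axis) of the 4 miRNAs of the 5p arm in each strain and tissue, with all 19 arrays scaled together. Points are arrays (shape gives the slide, open points are not well above background), lines are means and bars SD. All high-active values of mmu-miR-146b-5p lie below the low-active ones in each tissue, and mmu-miR-155-5p is at the floor on 6 of 7 nucleus accumbens arrays and just above it on that of low-active mouse 195.

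For mmu-miR-146b-5p, both probes gave a lower mean in high-active mice in each tissue: the dimmer probe differed by -0.26 in nucleus accumbens, -0.14 in soleus and -0.26 in EDL. In soleus that dimmer probe was well above background on only 2 of 6 arrays and at the floor in all high-active mice, so its difference there understates any change. Arrays lay on 3 slides, and within each slide that held both strains the difference had the same sign. These within-slide differences were -0.52 and -0.22 in nucleus accumbens, -1.08 and -0.83 in soleus, and -0.68 and -0.27 in EDL.

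The call of mmu-miR-146b-5p for the average of the 3 tissues depended on the processing. It stood when each of the 19 arrays was left out (adjusted p 9.29e-05 to 0.0110) and when the mouse entered as a replicate block (-0.55, adjusted p = 0.00330, limma). It was lost when arrays were scaled over all probes (-0.31, adjusted p = 0.0793), when they were not scaled (-0.63, adjusted p = 0.0837), with normexp background correction (-0.24, adjusted p = 0.396) and with the scanner software's own signal per miRNA (-0.16, adjusted p = 0.591). The average was negative under all 29 alternatives tried, 19 of them single arrays left out. The median over all miRNAs tested was itself -0.06 in the fit reported, 0.10 scaled over all probes and -0.12 with the software's signal. The software's signal for mmu-miR-146b-5p was 1.96 to 3.49 times the sum of its probe totals on 4 high-active muscle arrays and 1.87 times that sum on 1 low-active EDL array, each with only 1 of its 2 probes well above background. On the high-active soleus array of mouse 224, also with 1 such probe, the software's signal equalled the sum. For mmu-miR-146a-5p it was 0.82 times the sum on the low-active EDL array of mouse 195.

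**Figure D2:**
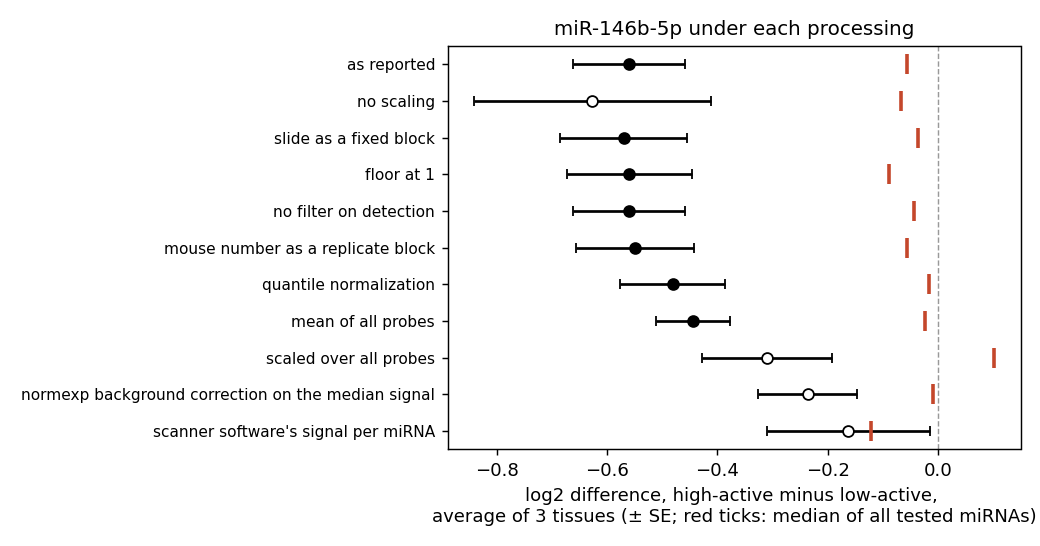
Strain difference of mmu-miR-146b-5p averaged over 3 tissues (x axis, log2, high-active minus low-active; bars are SE) under each processing (rows). Filled points have an adjusted p under 0.05, and red ticks mark the median difference of all miRNAs tested. All 11 values are below 0, and 4 of them, from -0.63 to -0.16, miss the threshold.

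The share of all miRNAs called sets these counts in context. In the average over tissues, 71 of 484 miRNAs tested (14.7%) passed, 20 higher and 51 lower in high-active mice, and 1 of the 4 members was among them. In single tissues, the test called 6.91% of 391 miRNAs in nucleus accumbens, 1.17% of 342 in soleus and 0.303% of 330 in EDL, and no member. Strains that did not overlap, with the high-active values lower, were found for 14.6% of miRNAs in nucleus accumbens, 12.3% in soleus and 10.6% in EDL. In either direction these shares were 18.4%, 29.5% and 19.7%. Against them, 1 of 3 members tested was apart in nucleus accumbens, 4 of 4 in soleus and 3 of 4 in EDL.

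mmu-miR-146a-5p, which has the same seed as mmu-miR-146b-5p, did not share its pattern in the nucleus accumbens. There its log2 signal was 7.86, 7.34, 7.60 and 7.86 in high-active mice and 7.41, 7.48 and 7.36 in low-active mice. The strains overlapped through high-active mouse 224, and the mean was higher in high-active mice by 0.25 (SE 0.16, adjusted p = 0.431, limma). In soleus, the values were 6.98, 6.77, 6.81 and 6.88 in high-active mice and 7.02 and 7.08 in low-active mice. In EDL, they were 6.60 and 6.30 in high-active mice and 6.69, 7.19, 6.72 and 6.85 in low-active mice. In both muscles all high-active values were below all low-active ones, by -0.19 in soleus (SE 0.08, adjusted p = 0.323) and by -0.41 in EDL (SE 0.23, adjusted p = 0.704), both from limma. Scaled over all probes or with normexp correction, the soleus difference was 0.06 and 0.09, of the opposite sign. The averaged difference was -0.14 (adjusted p = 0.284, limma), with a 95% confidence interval of -0.32 to 0.03, and turned to 0.11 when arrays were scaled over all probes.

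mmu-miR-155-5p was tested in the muscles only. In soleus, its log2 signal was 7.84, 8.04, 8.32 and 8.12 in high-active mice and 7.72 and 7.67 in low-active mice. It was the only member with every high-active soleus above both low-active ones, by 0.38 (SE 0.15, 1.30-fold, adjusted p = 0.279, limma), and without scaling the sign turned, to -0.33. In EDL, the values were 7.36 and 7.32 in high-active mice and 7.37, 7.25, 7.72 and 7.25 in low-active mice. These overlapped throughout, with a difference of -0.06 (95% confidence interval -0.57 to 0.45, adjusted p = 0.940, limma).

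Leukocyte miRNAs are given beside miR-155, which is abundant in activated leukocytes. The summed signal of 4 leukocyte miRNAs (miR-142-3p, miR-142-5p, miR-150-5p and miR-223-3p) was 1590 to 1805 units in high-active soleus and 1319 to 1337 units in low-active soleus, without overlap, and 1 of the 4, miR-142-5p, was undetected on every soleus array. Within that sum miR-150-5p differed by 0.73 (adjusted p = 0.0914, limma) and miR-223-3p by -0.01. In EDL this sum was 1420 to 1460 units in high-active and 1047 to 1171 units in low-active mice, whereas mmu-miR-155-5p overlapped. Of single miRNAs tested, 29.5% in soleus and 19.7% in EDL were apart in either direction. A sum of 4 vascular miRNAs was apart in EDL (high-active 9739 to 10675 units, low-active 7293 to 9711 units), and overlapped in soleus. None of the 3 leukocyte miRNAs tested in a tissue passed the strain test in any, and the part of these cells in the miR-155 values was not tested.

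mmu-miR-21a-5p, the target of STAT3, had mean differences of opposite sign in the 2 muscles, neither of which passed the test. In soleus, its log2 signal was 10.96, 10.86, 10.83 and 10.85 in high-active mice and 11.37 and 11.08 in low-active mice. In EDL, it was 11.02 and 11.02 in high-active mice and 10.93, 10.699, 10.56 and 10.96 in low-active mice. The high-active mice were thus all lower in soleus, by -0.35 (SE 0.10, adjusted p = 0.179, limma), and both higher in EDL, by 0.23 (SE 0.20, adjusted p = 0.786, limma). Without low-active mouse 195 the EDL difference was 0.033, and with all 19 arrays scaled together the EDL values overlapped, through low-active mouse 194. In nucleus accumbens, the values were 11.01, 10.85, 10.76 and 10.68 in high-active mice and 10.81, 10.60 and 10.69 in low-active mice. These overlapped, with a difference of 0.13 (95% confidence interval -0.17 to 0.42, adjusted p = 0.591, limma).

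The fibroblast list is given beside the soleus differences. Its 3 miRNAs, miR-199a-3p, miR-199a-5p and miR-214-3p, summed to 3815 to 4518 units in high-active soleus and 5253 to 5572 units in low-active soleus, without overlap. In soleus, 29.5% of single miRNAs tested were apart in either direction. All 3 fibroblast miRNAs had lower means in high-active soleus, as mmu-miR-21a-5p and both miR-146 miRNAs did, but none passed the test. In EDL the same sum was 4158 to 4680 units in high-active and 3500 to 9147 units in low-active mice, which overlapped. The part of fibroblasts in the soleus differences was not tested.

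Other marker miRNAs also differed in mean between the strains, although none passed the test. In soleus, the skeletal muscle miRNAs miR-208b-3p, miR-206-3p and miR-499-5p differed by 1.35, 0.89 and 0.55 (adjusted p = 0.0914, 0.150 and 0.210, limma). On the same list, miR-1a-3p, miR-133a-3p and miR-133b-3p differed by -0.03, 0.03 and -0.01. In nucleus accumbens, the summed signal of 7 epithelial miRNAs was 266 to 21713 units in high-active mice and 188 to 6213 units in low-active mice, with 1 of the 7 undetected throughout. Of these, miR-200a-3p, miR-200b-3p and miR-429-3p had differences of 4.14, 3.95 and 3.70. Their SEs were 2.15, 2.15 and 2.09 (adjusted p = 0.363, 0.381 and 0.392, limma), and each was well above background on 5 arrays. The differences of miR-200c-3p and miR-141-3p were 2.76 and 2.24. The only one well above background on all 7 arrays, miR-203-3p, went the other way, by -0.19. The sum of 2 red cell miRNAs was 2010 to 5082 units in high-active and 4463 to 13614 units in low-active nucleus accumbens, and miR-451a, the one tested, differed by -1.34 (adjusted p = 0.148, limma). Both sums overlapped between the strains. In muscle, 5 of the 7 epithelial miRNAs were undetected throughout. The sum of all 7 was 169 to 220.2 units in high-active and 228 to 247 units in low-active soleus. In EDL it was 131 units on both high-active arrays and 169 to 327 units on the low-active ones. The strains did not overlap in either muscle, where 29.5% (soleus) and 19.7% (EDL) of single miRNAs tested were apart in either direction. All 7 were at the floor in high-active EDL, so 131 units is no measured signal. The lowest high-active soleus sum was likewise made up of floor values. miR-203-3p differed by -1.18 in soleus and -1.84 in EDL, and miR-205-5p by -1.46 in EDL. Both EDL differences were taken against high-active values at the floor. The part of these cells in the values of the members was not tested.

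**Figure D3:**
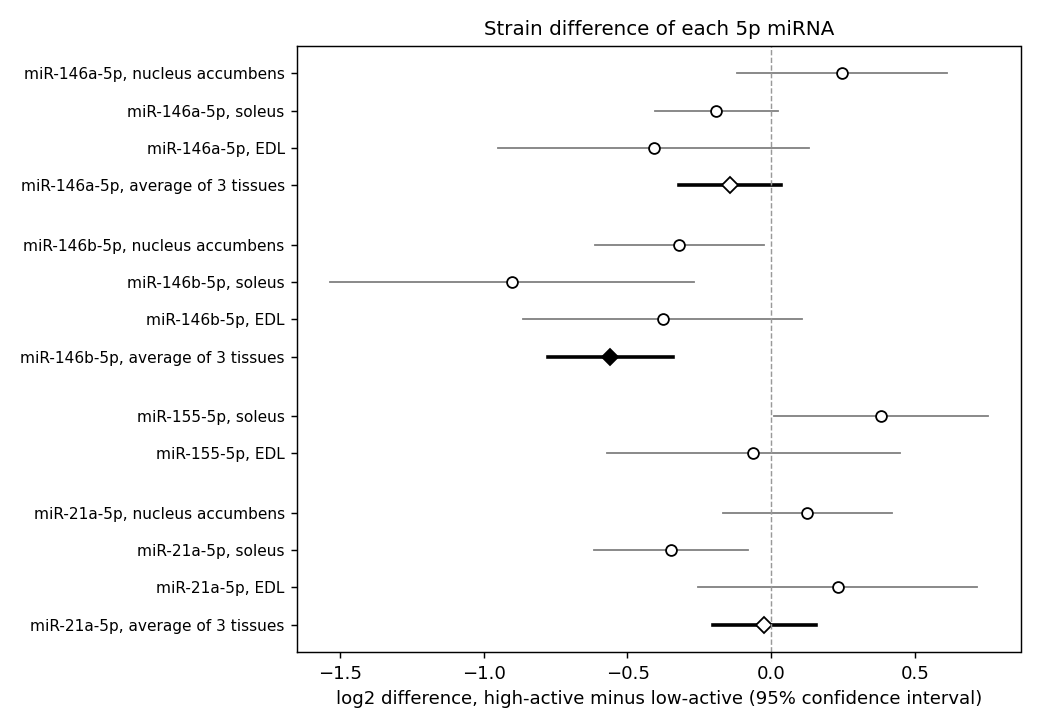
Log2 difference, high-active minus low-active (x axis), with its 95% confidence interval, for each 5p miRNA in each tissue tested (circles) and averaged over the 3 tissues in one model (diamonds); filled symbols have an adjusted p under 0.05. The average of mmu-miR-146b-5p, -0.56, is the only filled symbol. The average of mmu-miR-155-5p is not drawn, since its nucleus accumbens values lie at the floor.

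Whether the strain difference itself differed between tissues was tested in the model of all 19 arrays. No member passed in any of the 3 comparisons of tissues, in which 7.64% (nucleus accumbens minus soleus), 5.99% (nucleus accumbens minus EDL) and 0.62% (soleus minus EDL) of 484 miRNAs did. The lowest adjusted p was that of mmu-miR-146a-5p, whose strain difference was 0.61 higher in nucleus accumbens than in EDL (95% confidence interval 0.18 to 1.03, adjusted p = 0.104, limma). That of mmu-miR-21a-5p was -0.65 in soleus minus EDL (95% confidence interval -1.11 to -0.20, unadjusted p = 0.00811, adjusted p = 0.357, limma). For mmu-miR-146b-5p it was 0.60 in nucleus accumbens minus soleus (95% confidence interval 0.08 to 1.13, adjusted p = 0.192, limma), with the sign turned by normexp correction (-0.15) and by the software's signal (-0.77), and 0.01 in nucleus accumbens minus EDL (95% confidence interval -0.51 to 0.53). The same model gave an average strain difference of 0.07 for mmu-miR-155-5p (adjusted p = 0.679, limma), which includes nucleus accumbens values at the floor. It gave -0.02 for mmu-miR-21a-5p (95% confidence interval -0.20 to 0.15, adjusted p = 0.872, limma).

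Tissues were compared within each strain, with all 19 arrays scaled together. mmu-miR-155-5p was at least 14.7-fold lower in nucleus accumbens than in soleus and at least 9.82-fold lower than in EDL in high-active mice, and at least 10.2-fold and 8.84-fold lower in low-active mice. With the scanner software's own signal per miRNA, none of these differences passed the test. Adjusted p was then 0.214 and 0.482 in high-active mice and 0.714 and 0.679 in low-active mice (limma). That signal was 2126, 0.1 and 977 units in nucleus accumbens of high-active mice 223 and 227 and low-active mouse 195. The probe totals there summed to 12.9, 11.2 and 11.2 units. The part of these values in the lost calls was not tested. The folds given are lower bounds, since the nucleus accumbens value is a limit set by the lowest signal well above background on each array. The muscle arrays ranged from 7.30 to 8.44 on the log2 scale common to the 19 arrays, far above that limit, which averaged 4.24 in high-active and 4.44 in low-active mice. On the same scale, mmu-miR-155-5p was higher in soleus than in EDL of high-active mice, at 8.11 ± 0.24 and 7.53 ± 0.02 (SD, n = 4 and 2), a difference of 0.58 (adjusted p = 0.0323, limma). In low-active mice, soleus and EDL averaged 7.79 ± 0.08 and 7.58 ± 0.31 (SD, n = 2 and 4) and did not pass (0.21, adjusted p = 0.691, limma). The high-active call was lost under 7 other processings and when any of 5 arrays was left out.

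mmu-miR-146b-5p had the opposite order. It averaged 7.98 ± 0.11, 5.90 ± 0.39 and 6.59 ± 0.19 in nucleus accumbens, soleus and EDL of high-active mice and 8.34 ± 0.11, 6.86 ± 0.17 and 6.95 ± 0.07 in those of low-active mice (SD). Nucleus accumbens was thus 4.23-fold above soleus and 2.63-fold above EDL in high-active mice (adjusted p = 2.85e-09 and 5.76e-06, limma), and 2.79-fold and 2.61-fold above them in low-active mice (adjusted p = 4.91e-06 and 1.19e-06). Between the muscles, soleus was lower than EDL by -0.69 in high-active mice (adjusted p = 0.0192, limma), a call lost without high-active EDL mouse 225 (-0.55, adjusted p = 0.271), without scaling (-0.79), with normexp correction (-0.20) and with the software's signal, which turned the sign (0.065). Soleus and EDL differed by -0.09 in low-active mice (adjusted p = 1).

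mmu-miR-146a-5p averaged 7.45 ± 0.26, 6.89 ± 0.09 and 6.65 ± 0.16 in nucleus accumbens, soleus and EDL of high-active mice and 7.24 ± 0.05, 7.14 ± 0.15 and 7.04 ± 0.18 in those of low-active mice (SD). Nucleus accumbens was higher than soleus by 0.56 and than EDL by 0.80 in high-active mice (adjusted p = 0.000770 and 0.000217, limma), but quantile normalization turned both signs (-0.33 and -0.09). In low-active mice the differences of 0.09 and 0.19 did not pass, and quantile normalization gave -0.78 and -0.65 with an adjusted p under the threshold, so no order of tissues is given for this miRNA.

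mmu-miR-21a-5p was lower in nucleus accumbens than in either muscle in both strains. It averaged 10.61 ± 0.23, 10.91 ± 0.08 and 11.21 ± 0.05 in nucleus accumbens, soleus and EDL of high-active mice and 10.52 ± 0.18, 11.31 ± 0.09 and 10.97 ± 0.21 in those of low-active mice (SD). The nucleus accumbens differed from soleus by -0.30 and from EDL by -0.61 in high-active mice (adjusted p = 0.0402 and 0.00239, limma), and by -0.80 and -0.45 in low-active mice (adjusted p = 0.000355 and 0.00632). The first of these was lost under 8 of 29 alternatives, 5 of them arrays left out, and turned to 0.35 without scaling. The difference from EDL lost its call under 1 of 29 alternatives in high-active mice and under 2 of 29 in low-active mice. The low-active difference from soleus kept its call in all 29. Soleus and EDL differed by -0.31 in high-active mice and by 0.34 in low-active mice, and neither passed (adjusted p = 0.265 and 0.296, limma).

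Differences between tissues were common on these arrays. In high-active mice, 72.1% of 484 miRNAs passed between nucleus accumbens and soleus, 62% between nucleus accumbens and EDL and 12.6% between soleus and EDL. In low-active mice these shares were 68.8%, 72.5% and 6.4%. Of the 4 members, 4, 4 and 2 passed in high-active mice and 3, 3 and 0 in low-active mice.

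By the correlation of log2 signal over the 19 arrays, among 403 miRNAs well above background on at least 6 of them, the miRNAs most like mmu-miR-146b-5p were miR-341-3p (Pearson r = 0.94), miR-340-3p (0.93) and miR-434-5p (0.93). Those most like mmu-miR-155-5p were miR-10a-5p (0.995), miR-10b-5p (0.992) and miR-378a-5p (0.989), of which miR-10a-5p is known to restrain NF-kB in human endothelial cells. mmu-miR-146a-5p was most like miR-181d-5p (0.80), miR-181c-5p (0.80) and miR-191-5p (0.78), and mmu-miR-21a-5p was most like miR-143-3p (0.87), miR-378b (0.80) and miR-152-3p (0.80). These values describe arrays of 3 tissues that share mice and scaling, so they mainly order miRNAs by tissue. Within the 7 nucleus accumbens arrays, the nearest miRNAs were different: miR-16-5p (0.97), miR-425-5p (0.97) and miR-30e-3p (0.95) for mmu-miR-146a-5p. They were miR-210-3p (0.95), miR-331-3p (0.94) and miR-137-5p (0.94) for mmu-miR-146b-5p, and miR-30e-5p (0.94), miR-337-3p (0.92) and miR-101b-3p (0.87) for mmu-miR-21a-5p.

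Other miRNAs tied to Toll-like receptor, NF-kB or STAT3 signalling did not pass the strain test in any tissue. Of 21 such miRNAs, 19 were tested in nucleus accumbens, 17 in soleus and 18 in EDL. Their median differences were -0.02, -0.02 and 0.05, beside -0.11, -0.02 and 0.02 over all miRNAs tested in these tissues. Their means were higher in high-active mice for 8 of 19, 7 of 17 and 10 of 18. The list's members with the highest probe signal are given as examples, with no order of abundance. In nucleus accumbens they were miR-125b-5p, a repressor of TNF, with a strain difference of -0.26 (adjusted p = 0.438, limma) and miR-9-5p, a repressor of NFKB1 in human monocytes, at 0.26 (adjusted p = 0.438). In both muscles they were miR-125b-5p, at -0.16 in soleus and -0.06 in EDL, and let-7i-5p, which targets TLR4 itself in human cells, at -0.25 in soleus (adjusted p = 0.450) and -0.05 in EDL (adjusted p = 0.944). miR-147-3p, which Toll-like receptor signalling induces in macrophages, had no array on which it was well above background.

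**Figure D4:**
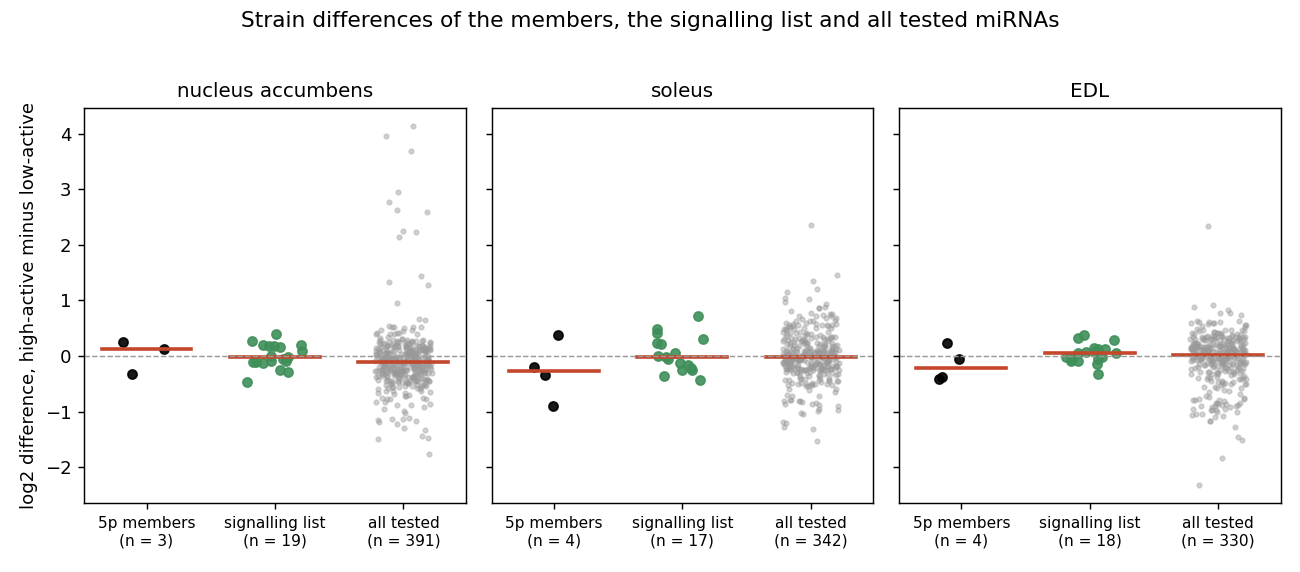
Log2 difference, high-active minus low-active (y axis), in each tissue for the 5p members tested, the signalling list and all miRNAs tested; points are miRNAs and red lines medians. The members and the list are themselves among all miRNAs tested, and the lowest member value is -0.90, that of mmu-miR-146b-5p in soleus.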

How the data were processed

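The authors labelled total RNA with a single dye, hybridised it to Agilent mouse miRNA arrays and dismissed arrays of poor quality. Scanner output, as deposited, gives an intensity for each spot after background subtraction by Feature Extraction 10.7.1.1 (protocol miRNA_107_Sep09, per the file headers), without normalization between arrays. The deposited series-wide value table is on a log2 scale after the authors' percentile shift, with the percentile not given in the sources used here and each member's median within a tissue at 0. It served only as an alternative, where a member's values followed its summed probe signals within 0.01 (8 of 12 cases).

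Outlier spots (4.04% to 7.03% of 45440 per array) were dropped, and the others averaged per probe (2889 probes, 1136 miRNAs). Probes counted as detected with over 0.5 of spots well above background. The 75th percentile of probes detected on every array set the scale within nucleus accumbens (594 probes), soleus (456) or EDL (417), and over all 19 arrays (328). Floors of 24.3, 24.2, 18.7 and 21.2 units were applied before log2. The probe with the highest mean stood for its miRNA. Linear models in limma 3.58.1 (R 4.3.3) with moderated variances tested miRNAs detected on at least 3, 2, 2 and 2 arrays, with Benjamini-Hochberg adjustment over all of them. The R packages data.table (version 1.17.8) and jsonlite 2.0.0, with numpy 2.4.6 and matplotlib 3.10.9, were also used. The fits were tested on simulated data.

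The members and miRNA lists were chosen with earlier results of these data known. Named were all members, the 3 miRNAs most like each, and the 2 with the highest probe signal of the signalling list and any past the test. Precision is limited by how few arrays each group has. Arrays with the same mouse number in the labels were taken as tissues of the same animal. Deviations from group means correlated with a median r of 0.06 over 15 same-mouse pairs (-0.50 to 0.54). Over 43 other pairs the median r was -0.05 (-0.60 to 0.60), so these values do not establish the pairing. The estimated within-mouse correlation was 0.09. Alternatives changed the scaling, background correction, floor, filter, probe and spot summary, slide, mouse block and arrays. Marker lists for leukocytes, fibroblasts, red cells, skeletal muscle, brain, vascular and epithelial cells were tested too, and no miRNA on them passed in a strain comparison within a tissue.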

Additional observations from a re-analysis of the deposited data

Results flagged for a closer look

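The scanner software's own signal per miRNA was used above only as an alternative. It gave mmu-miR-155-5p a value of 2126 units in the nucleus accumbens of high-active mouse 223 and 977 units in that of low-active mouse 195. The signals of its probes on these arrays summed to 12.9 and 11.2 units, and neither probe was well above background. On the nucleus accumbens array of high-active mouse 227 the software's signal was 0.1 units, with probe signals summing to 11.2 units. That was the only nucleus accumbens array on which the software did not mark mmu-miR-155-5p as detected. The other 4 nucleus accumbens arrays and all 12 muscle arrays had the same value by both routes. The origin of these values was not tested.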

How the results depend on the processing

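The strain differences had 728 alternative values, of which 716 stayed on the same side of the threshold, 4 were no longer past it, 8 came past it and 44 below it turned sign. The mouse as a replicate block gave -0.55 for the average of mmu-miR-146b-5p and changed no strain call of a member. That average missed the threshold at -0.31 scaled over all probes, -0.63 without scaling, -0.24 with normexp correction (chosen after seeing the data) and -0.16 with the software's signal per miRNA. Without scaling, soleus differences passed at -0.90 (mmu-miR-146a-5p), -1.61 (mmu-miR-146b-5p) and -1.06 (mmu-miR-21a-5p), where the median of all miRNAs was -0.68, and the differences of nucleus accumbens minus soleus passed at 1.53 (mmu-miR-146a-5p) and 1.68 (mmu-miR-146b-5p). The nucleus accumbens minus EDL difference of mmu-miR-146a-5p passed at 0.56 with quantile normalization and, over arrays left out, ranged from 0.42 to 0.72, passing without high-active nucleus accumbens mouse 224 (0.69, adjusted p = 0.0368, limma). That of mmu-miR-146b-5p in nucleus accumbens minus soleus ranged from 0.41 to 0.76, passing without high-active soleus mouse 224 (0.76, adjusted p = 0.0218), and turned to -0.15 with normexp and -0.77 with the software's signal.

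Between tissues, 655 of 696 alternative values stayed on their side of the threshold, 33 lost it and 8 turned. For mmu-miR-146a-5p, quantile normalization gave -0.33 (nucleus accumbens minus soleus) and -0.085 (minus EDL) in high-active mice and -0.78 and -0.65 in low-active mice, and scaling over all probes gave -0.022 (high-active, minus soleus) and -0.50 (low-active, minus EDL). mmu-miR-21a-5p turned to 0.35 without scaling (high-active, nucleus accumbens minus soleus), and mmu-miR-146b-5p to 0.065 with the software's signal (high-active, soleus minus EDL). The low-active nucleus accumbens minus EDL call of mmu-miR-21a-5p was lost without low-active nucleus accumbens mouse 195 (-0.33, adjusted p = 0.0620, limma). Counts of miRNAs called also moved: the strain test called 27 in nucleus accumbens (4 to 38 over alternatives), 4 in soleus (0 to 52), 1 in EDL (0 to 9) and 71 on average (6 to 93). Of the averaged calls, 20 were higher and 51 lower, against 64 and 29 scaled over all probes, 4 and 51 without scaling, 15 and 41 with quantile normalization, 8 and 48 with the software's signal and 5 and 1 with normexp. The causes were not tested. A group left with 1 array was assumed to vary like the others, and normexp on the mean signal was not run because the scanner columns used here hold the median.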
